A study of Homo sapiens with 6 samples.

Results

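Kinesins are motor proteins that walk along microtubules or take them apart, using ATP. The members were taken as all rows of the gene count table whose Ensembl identifier maps to a protein-coding gene with a KIF or KIFC symbol, which gave 42 of 63186 genes. They were sorted by their known main role into 14 mitotic kinesins, 17 transport kinesins and 11 others. Counts came from 6 RNA-seq libraries of the established human cell line RBE, which came from an intrahepatic cholangiocarcinoma, a tumour of bile ducts inside the liver. In the si-CHAF1A group, 3 cultures were transfected by Lipofectamine with siRNA that targets CHAF1A, the large subunit of the histone chaperone CAF-1, which loads histones onto newly made DNA. In the si-Ctrl group, 3 cultures received a control siRNA in the same way. All cultures were transfected at about 60% confluency, had their medium changed at 24 h and were harvested at 48 h. The number and sequences of the siRNAs are not given in the labels, so an effect of CHAF1A loss cannot be told apart from other effects of the siRNA used, and all values come from 1 cell line at 1 time.

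Mitotic kinesins are made in the dividing part of the cell cycle, and their genes are known targets of cell cycle promoter elements. They slide spindle poles apart, move chromosomes, trim microtubule ends and build the midzone at which a cell cuts itself into daughters. Transport kinesins, most of which move outwards along microtubules, carry vesicles, mitochondria and protein complexes in cells that divide and in cells that do not. In epithelial cells such as bile duct cells they serve secretion, cilia and the polarity of the cell, and several are best known from axons.

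Total counts per library lay between 15643381 and 20918997. CHAF1A, the targeted gene, was at 11.1, 12.9 and 11.2 CPM in si-CHAF1A libraries, against 51.5, 59.8 and 51.0 CPM in si-Ctrl libraries (log2 fold change -2.21, SE 0.10, adjusted p = 2.57e-10 by edgeR's quasi-likelihood test). CPM are counts after scaling of each library by its size and TMM factor, and adjusted p-values are Benjamini-Hochberg values over all 15911 genes that passed a filter on low counts, with 0.05 as the threshold. The first principal component held 65.1% of the variance, with the si-CHAF1A libraries at one end and the si-Ctrl libraries at the other. On the second, with 11.2%, si-Ctrl 2 stood apart at 29.62 from si-Ctrl 1 at -14.95 and si-Ctrl 3 at -13.91. Of 9 markers of biliary epithelium, all passed the filter (CFTR only through the si-CHAF1A libraries), and their summed level was 5451 to 5997 CPM in si-CHAF1A libraries and 4324 to 4978 CPM in si-Ctrl libraries. Markers of other cell types were low. The 5 leukocyte markers, 0 of them past the filter, summed to 0.673 to 0.951 CPM in si-CHAF1A libraries and 1.02 to 1.21 CPM in si-Ctrl libraries. Of 5 hepatocyte markers 1 passed the filter (SERPINA1, higher), with sums of 30.01 to 52.9 CPM and 16.3 to 25.5 CPM in the same groups. Of 6 fibroblast markers 2 passed (PDGFRB higher), with sums of 16.0 to 36.2 CPM in si-CHAF1A libraries and 8.66 to 11.8 CPM in si-Ctrl libraries. The upper end was si-CHAF1A 1, with COL1A1 at 23.4 CPM there, against 11.3 and 11.8 CPM in si-CHAF1A 2 and 3. COL1A1 did not reach the threshold (adjusted p = 0.0717 by edgeR). Of 4 endothelial markers 2 passed. VWF was higher, but it was above the cutoff of the filter in only 1 control library and could be tested only because it was high in si-CHAF1A libraries. The endothelial markers had sums of 6.60 to 8.86 CPM in si-CHAF1A libraries and 2.41 to 3.77 CPM in si-Ctrl libraries.

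The promoters of the mitotic kinesins shared letters that those of the other kinesins mostly lacked. The cell cycle genes homology region (CHR) is a short element, TTTGAA or TTCGAA, through which the DREAM and MuvB complexes are known to hold G2 and mitosis genes low outside those phases and to raise them within. It was sought on both strands, so that TTCAAA counts as TTTGAA, in RefSeq windows of 300 bases, which run from 250 before to 50 after each annotated start (GRCh38.p14). Windows were found for 34 of the 42 kinesins. The letters were present in 11 of 14 mitotic kinesins (78.6%), in 1 of 12 transport kinesins (8.33%, KIF5B) and in 1 of 8 others (12.5%, KIF24), beside 19.5% of 27305 genes. These 27305 are all genes with such a window, not selected for protein-coding genes as the kinesins were. The box CCAAT, bound by NF-Y, was sought in the same way, also as ATTGG, and its matches may share an end base with the CHR letters. It was present in 78.6% of mitotic, 33.3% of transport and 37.5% of other kinesins and in 39.7% of all genes. Both were present in 71.4% of mitotic kinesins and in 7.85% of all genes. Among the 11 mitotic kinesins that passed the filter, KIF20A and KIF2C held no CHR letters in these windows.

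The following 5 stretches from mitotic kinesin promoters show the element in place, because these genes all belong to the group that was lower in si-CHAF1A cells. Each is written 5′ to 3′ on the plus strand of GRCh38.p14, with the CHR letters in capitals, and the position counts bases from the annotated start to the first capital, with negative values upstream.
KIF4A, chrX:70290058-70290087, position -34: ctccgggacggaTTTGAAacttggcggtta
KIF11, chr10:92593090-92593119, position -28: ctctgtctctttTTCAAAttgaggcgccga
KIF15, chr3:44761747-44761776, position -35: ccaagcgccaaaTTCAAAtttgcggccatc
KIF22, chr16:29790712-29790741, position -27: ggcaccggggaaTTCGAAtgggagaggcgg
KIF23, chr15:69414282-69414311, position -55: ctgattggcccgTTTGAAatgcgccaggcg
The same KIF22 letters lie at -244 from another annotated start of that gene. In KIF23 the complement of the NF-Y box (attgg) stands a few bases upstream of the element within the same stretch. A match of letters is not a measured binding site, and binding was not measured in these libraries.

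**Figure D1:**
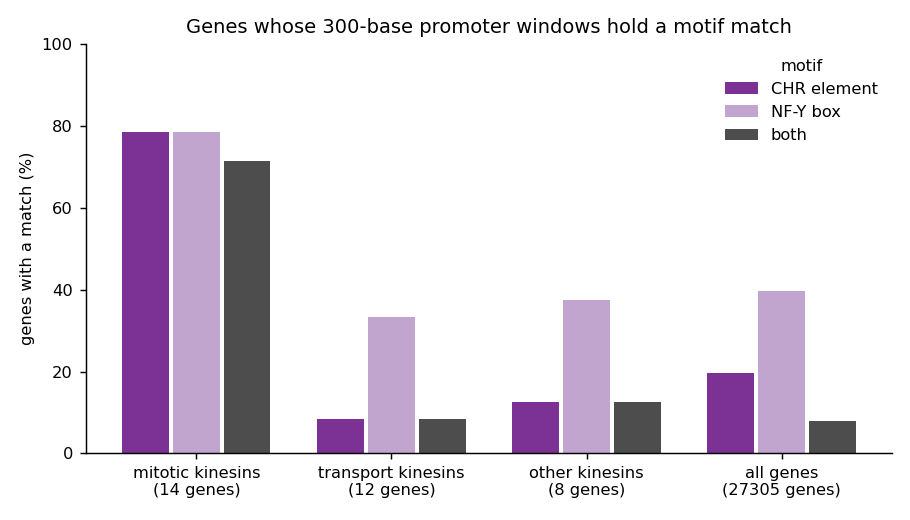
Percentage of genes (y axis) whose promoter windows hold a CHR element, an NF-Y box or both, for mitotic, transport and other kinesins and for all genes with a window. The CHR bar stands at 78.6% for mitotic kinesins, 8.33% for transport kinesins, 12.5% for other kinesins and 19.5% for all genes.

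Of the 42 kinesins, 35 passed the filter on low counts and were tested, and 22 of these 35 differed between the groups, beside 37.8% of all tested genes. In si-CHAF1A cells 15 of them were lower, beside 19.3% of all tested genes, and 7 were higher, beside 18.5% of all tested genes. By role, all 11 tested mitotic kinesins were lower and 0 were higher, with a median log2 fold change of -0.88 beside 0.00 over all tested genes. The roles were assigned with earlier results known, and KIF2A, which acts at spindle poles and elsewhere, was placed among the others. Counted with the mitotic kinesins it would make 11 of 12 lower. The count of 0 higher was also 0 by DESeq2 and by limma-voom. It was 0 at an unadjusted p under 0.05 too, which follows from all 11 being called lower in the same fit. The 16 tested transport kinesins had 3 lower and 5 higher genes with a median of 0.07, and the 8 tested others had 1 lower and 2 higher with a median of -0.07. The call of KIF7, the lower one of the others, rests on si-CHAF1A 3, and that of KIF26A, one of the higher, was lost under most alternatives, as given with these genes. At least 2-fold lower were 3 kinesins (KIF5B, KIF20A and KIF14), or 8.57% of those tested, beside 1.46% of all tested genes. Only KIF1A was at least 2-fold higher, beside 4.19% of all tested genes. KIF1A is counted in the 7 higher kinesins and the 5 higher transport kinesins, but it could be tested only because it was high in si-CHAF1A libraries. Without it the transport kinesins had 3 lower and 4 higher of 15 tested, with a median of 0.07.

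**Figure D2:**
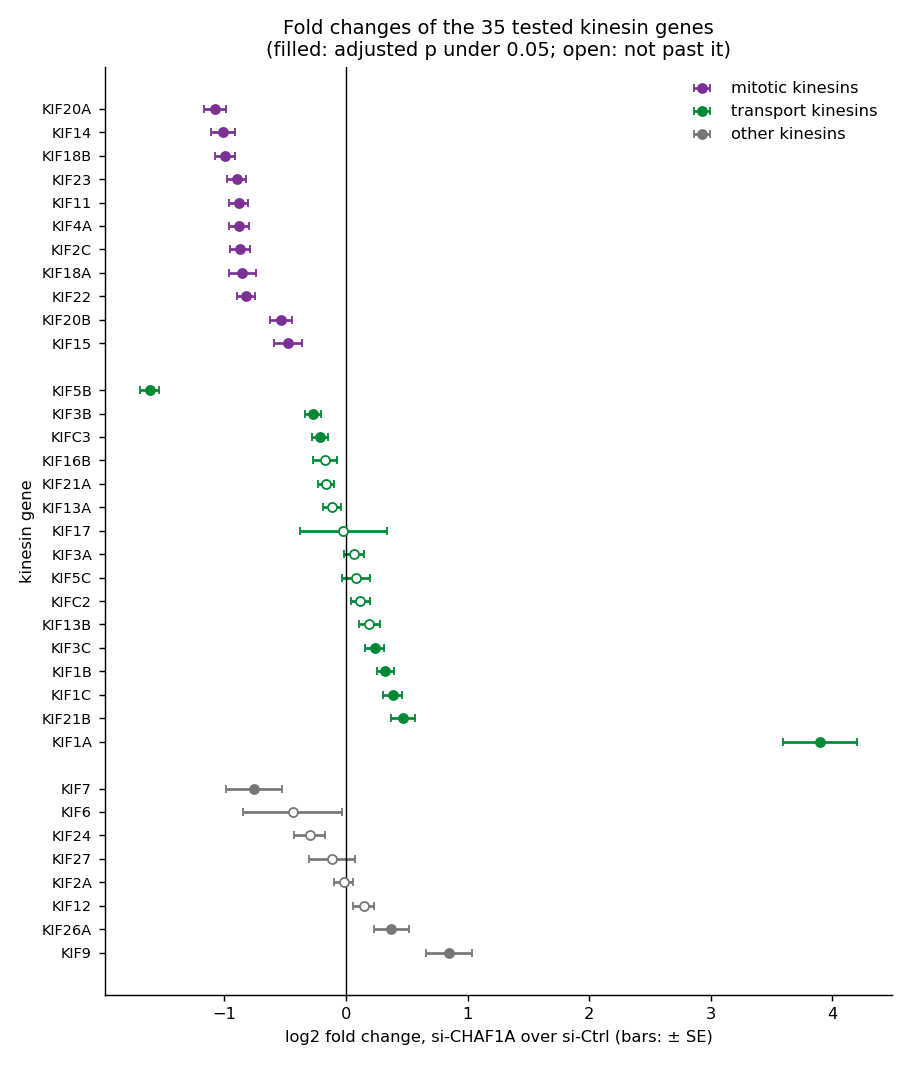
Log2 fold change of si-CHAF1A over si-Ctrl (x axis, bars are ± SE) for the 35 tested kinesins, grouped by role and sorted within it, with filled points for genes past the test. All 11 mitotic kinesins lie between -1.08 and -0.48, while transport kinesins range from KIF5B at -1.62 to KIF1A at 3.90.

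The mitotic kinesins together made up 377 ± 14.9 CPM in si-CHAF1A libraries and 687 ± 17.2 CPM in si-Ctrl libraries (SD, n = 3 each), a ratio of 0.549. In all 11 tested genes every si-CHAF1A library was below every si-Ctrl library, an order that 24.1% of all tested genes show. The same libraries held less of the general markers of dividing cells, so in bulk RNA fewer cells in mitosis and less kinesin RNA per mitotic cell cannot be told apart. Of 12 such markers 11 were lower and PCNA did not reach the threshold (log2 fold change 0.14, adjusted p = 0.0955 by edgeR). Their sum was 1191 to 1302 CPM in si-CHAF1A libraries and 2135 to 2173 CPM in si-Ctrl libraries, none of them was at 0, and their median log2 fold change of -0.87 was close to that of the mitotic kinesins. The marker MKI67 was at 322, 350 and 351 CPM in si-CHAF1A libraries and 643, 704 and 626 CPM in si-Ctrl libraries (log2 fold change -0.95, adjusted p = 2.56e-08 by edgeR). The part of this in the kinesin values was not tested.

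The 2 largest falls among mitotic kinesins were in KIF20A and KIF14, which act late, at the spindle midzone and in cytokinesis. KIF20A, also called MKLP2, carries the chromosomal passenger complex to the midzone and lies on chromosome 5 (138178719 to 138187715, plus strand). It stood at 27.0, 31.8 and 32.7 CPM in si-CHAF1A libraries and 65.5, 68.0 and 59.6 CPM in si-Ctrl libraries. It fell 2.11-fold (log2 fold change -1.08, SE 0.09, adjusted p = 1.72e-07 by edgeR), and the groups lay far apart. KIF14 recruits the citron kinase to the midbody and lies on chromosome 1 (200551497 to 200620734, minus strand). It had 25.1, 29.1 and 28.9 CPM in si-CHAF1A libraries and 61.0, 48.9 and 58.0 CPM in si-Ctrl libraries (log2 fold change -1.01, SE 0.10, adjusted p = 8.50e-07 by edgeR). The lowest control, si-Ctrl 2, was still above every si-CHAF1A library. KIF23 is MKLP1, the motor of the centralspindlin complex, on chromosome 15 (69414246 to 69448427, plus strand). It was at 48.9, 54.2 and 55.2 CPM in si-CHAF1A libraries and 103, 88.8 and 103 CPM in si-Ctrl libraries (log2 fold change -0.90, SE 0.08, adjusted p = 4.13e-07 by edgeR). KIF4A, a chromosome-bound kinesin that sets the length of the midzone with PRC1, had 28.7, 29.6 and 33.9 CPM in si-CHAF1A libraries and 55.0, 59.0 and 55.4 CPM in si-Ctrl libraries (log2 fold change -0.88, SE 0.08, adjusted p = 8.95e-07 by edgeR). Reads of KIF4A and of its intronless copy KIF4B, which had 26 counts in all libraries together, could have been split between the rows. KIF20B, or MPHOSPH1, which works at the midbody, was less lowered, at 45.1, 52.2 and 48.8 CPM in si-CHAF1A libraries and 78.0, 60.9 and 72.8 CPM in si-Ctrl libraries (log2 fold change -0.53, SE 0.09, adjusted p = 0.000282 by edgeR). Its groups did not overlap, though si-Ctrl 2 came near the si-CHAF1A values.

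The motors that build the bipolar spindle fell as well. KIF11, or Eg5, the kinesin-5 that pushes spindle poles apart and the target of monastrol, lies on chromosome 10 (92593286 to 92655395, plus strand). It was at 57.4, 55.5 and 56.0 CPM in si-CHAF1A libraries and 106, 93.9 and 112 CPM in si-Ctrl libraries (log2 fold change -0.88, SE 0.08, adjusted p = 2.66e-07 by edgeR). The si-CHAF1A libraries were nearly alike, and all far below the controls. KIF15, the kinesin-12 that can stand in for KIF11, had the mildest fall of the group, at 10.9, 12.8 and 12.7 CPM in si-CHAF1A libraries and 18.9, 15.8 and 16.0 CPM in si-Ctrl libraries (log2 fold change -0.48, SE 0.11, adjusted p = 0.0038 by edgeR). Per kilobase of exon, KIF11 stood at 11.6 CPM in si-CHAF1A cells and 21.4 CPM in si-Ctrl cells, and KIF15 at 2.29 CPM and 3.20 CPM in the same groups. KIF11 was thus the more abundant of this pair in both groups.

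Kinesins that act on chromosomes and on microtubule ends moved by similar amounts. KIF18B, a kinesin-8 that shortens astral microtubules, had 36.1, 33.9 and 36.5 CPM in si-CHAF1A libraries and 66.1, 78.8 and 67.2 CPM in si-Ctrl libraries (log2 fold change -0.99, SE 0.08, adjusted p = 2.29e-07 by edgeR). KIF18A, its relative that damps chromosome movements at the metaphase plate, had 12.4, 10.6 and 12.8 CPM in si-CHAF1A libraries and 22.5, 19.4 and 22.9 CPM in si-Ctrl libraries (log2 fold change -0.85, SE 0.11, adjusted p = 2.19e-05 by edgeR). KIF2C, or MCAK, the depolymerase that frees wrongly attached kinetochores, had 32.3, 29.5 and 36.1 CPM in si-CHAF1A libraries and 59.6, 61.4 and 58.3 CPM in si-Ctrl libraries (log2 fold change -0.87, SE 0.08, adjusted p = 9.96e-07 by edgeR). In each of these genes the groups were clear of each other. KIF22, the chromokinesin Kid, which pushes chromosome arms outwards, had 38.5, 37.7 and 38.8 CPM in si-CHAF1A libraries and 64.2, 71.3 and 67.5 CPM in si-Ctrl libraries (log2 fold change -0.82, SE 0.07, adjusted p = 4.38e-07 by edgeR). Leaving out any 1 library, or changing the test, scaling or filter, left 11 mitotic kinesins lower each time.

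**Figure D3:**
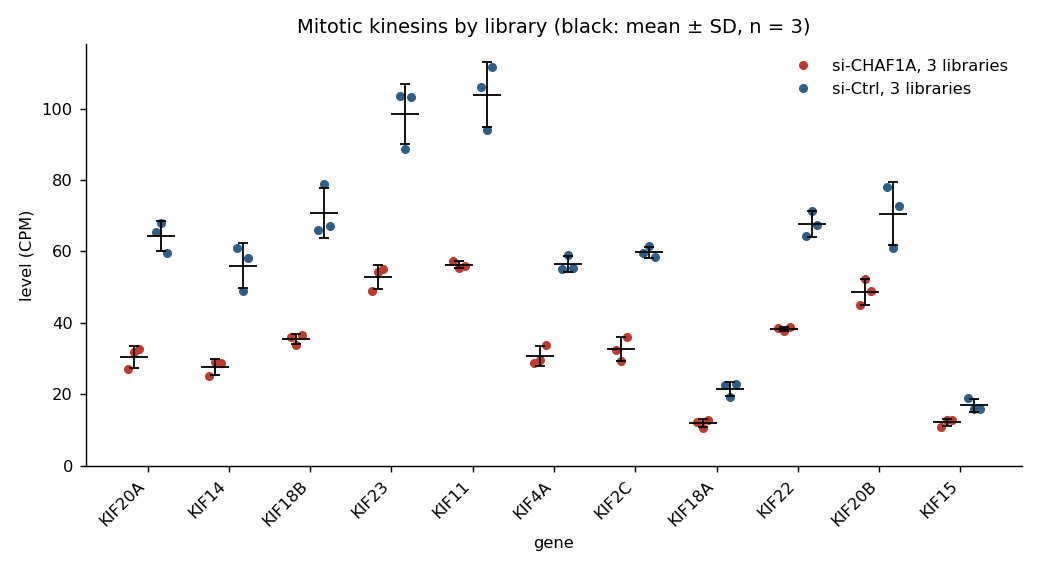
Level in CPM (y axis, from 0) of the 11 tested mitotic kinesins in each library, with si-CHAF1A left of si-Ctrl and the mean ± SD (n = 3) in black. For every gene all si-CHAF1A points lie below all si-Ctrl points, closest together for KIF15 and KIF20B.

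The remaining 3 mitotic kinesins did not pass the filter. KIF2B, a testis-enriched relative of KIF2C, had 0 counts, and KIF4B is described above. KIFC1, or HSET, the minus-end motor that clusters extra centrosomes, had 4 counts in si-CHAF1A and 18 in si-Ctrl libraries in all. KIFC1 lies on chromosome 6 (33391536 to 33409924). Of the 32 other protein-coding genes within 500 kb of it, 22 (68.8%) also had under 10 counts in all libraries together, beside 25.2% of 19830 protein-coding genes. The reason was not tested, and the counts of KIFC1 are not read here as its level.

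Proteins that bind or regulate mitotic kinesins were mostly lower too. Of 24 listed partners and regulators 23 were tested, of which 20 were lower (87.0%, beside 19.3% of all tested genes) and 1 was higher (4.35%, beside 18.5%), with a median log2 fold change of -0.91. The 5 with the smallest p were CEP55, AURKA, PLK1, TPX2 and CIT. CEP55, which binds centralspindlin and recruits the abscission machinery at the midbody, had 32.0, 35.4 and 37.0 CPM in si-CHAF1A libraries and 139, 127 and 139 CPM in si-Ctrl libraries (log2 fold change -1.96, SE 0.08, adjusted p = 5.29e-11 by edgeR). It fell further than any kinesin of the mitotic group. The kinases AURKA and PLK1 fell by 1.46 and 1.27 on the log2 scale. TPX2, which holds KIF11 on spindle microtubules, was at 102, 107 and 106 CPM in si-CHAF1A libraries and 223, 215 and 229 CPM in si-Ctrl libraries (log2 fold change -1.08, adjusted p = 3.38e-09 by edgeR). RACGAP1, the partner of KIF23 in centralspindlin, fell by 0.71 and CIT, the citron kinase that KIF14 binds, fell by 1.11 on the log2 scale. CENPE, a kinetochore kinesin without a KIF symbol, was at 14.3, 17.5 and 19.8 CPM in si-CHAF1A libraries and 37.7, 29.4 and 36.8 CPM in si-Ctrl libraries (log2 fold change -1.005, SE 0.12, adjusted p = 1.19e-05 by edgeR). GTSE1, an inhibitor of KIF2C, also fell, with a log2 fold change of -0.63. PRC1, to which KIF4A binds, was low in the table at 1.31, 0.919 and 1.35 CPM in si-CHAF1A libraries and 1.92, 2.48 and 2.98 CPM in si-Ctrl libraries (log2 fold change -1.05, adjusted p = 0.00827 by edgeR). A same-strand gene model, ENSG00000284946, overlaps PRC1, so reads of PRC1 could have been lost or moved to that row. AURKB, which phosphorylates several of these motors, had a smaller log2 fold change of -0.26 and did not pass without si-CHAF1A 1 or without si-CHAF1A 3 (adjusted p of 0.0576 and 0.0965). The passenger complex member BIRC5 did not pass, at 77.7, 74.6 and 83.5 CPM in si-CHAF1A libraries and 73.5, 82.9 and 78.9 CPM in si-Ctrl libraries (log2 fold change 0.0028, adjusted p = 0.982 by edgeR), nor did the plus-end protein MAPRE1 (-0.0049, adjusted p = 0.959). The 1 higher gene was NUMA1, a spindle pole protein, at 0.25 on the log2 scale, and it did not pass without si-CHAF1A 1 or without si-Ctrl 3 (adjusted p of 0.0596 and 0.0696).

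Transport kinesins did not move as a group, and their sum was 1250 ± 33.8 CPM in si-CHAF1A libraries and 1477 ± 24.2 CPM in si-Ctrl libraries. The difference lay in 1 gene, since without KIF5B the sums were 1114 ± 35.4 CPM and 1059 ± 56.1 CPM in the same groups. KIF5B, the ubiquitous heavy chain of kinesin-1, which carries mitochondria, lysosomes and many vesicles, lies on chromosome 10 (32009010 to 32056431, minus strand). It was at 134, 138 and 137 CPM in si-CHAF1A libraries, against 433, 369 and 449 CPM in si-Ctrl libraries. It fell 3.06-fold (log2 fold change -1.62, SE 0.07, adjusted p = 2.72e-10 by edgeR), and 0.258% of all tested genes fell at least 3-fold. The 3 si-CHAF1A values were almost equal and far under the lowest control. Per kilobase of exon KIF5B was the most abundant kinesin of si-Ctrl cells at 71.0 CPM, followed by KIF2A at 26.8 CPM and KIFC3 at 25.1 CPM. In si-CHAF1A cells it was at 23.2 CPM per kilobase and stood behind KIF1C at 30.3 CPM and KIF2A at 26.4 CPM. KIF5B made up 7.45% ± 0.202 of all kinesin CPM in si-CHAF1A libraries and 17.7% ± 1.66 in si-Ctrl libraries.

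Neither of the other kinesin-1 heavy chains was called different. KIF5C, the neuron-enriched form, was at 12.96, 11.3 and 10.5 CPM in si-CHAF1A libraries and 10.7, 11.02 and 11.1 CPM in si-Ctrl libraries (log2 fold change 0.08, SE 0.12, adjusted p = 0.615 by edgeR). KIF5A, the form mutated in a hereditary spastic paraplegia, had 17 counts in each group and did not pass the filter. The heavy chains summed to 148 ± 1.54 CPM in si-CHAF1A libraries and 429 ± 42.2 CPM in si-Ctrl libraries. The light chains KLC1 to KLC4, which bind cargo on the heavy chains, summed to 184 ± 5.82 CPM in si-CHAF1A libraries and 175 ± 13.3 CPM in si-Ctrl libraries. Among them KLC4 was higher (log2 fold change 0.45, adjusted p = 0.00261 by edgeR) and KLC2 was lower (-0.30, adjusted p = 0.00845 by edgeR). KLC2 did not pass without si-CHAF1A 2 (adjusted p = 0.0524). KLC1 was higher by 0.22 on the log2 scale but did not pass without si-CHAF1A 1, si-CHAF1A 2, si-Ctrl 1 or si-Ctrl 3 (adjusted p of 0.0628 to 0.123), nor in the fit with a replicate block (adjusted p = 0.0556). KLC3 was at 1.07, 0.574 and 1.01 CPM in si-CHAF1A libraries and 0.320, 0.303 and 0.287 CPM in si-Ctrl libraries, and it passed the filter only through the si-CHAF1A libraries. Its call was lost without si-CHAF1A 1 or without si-CHAF1A 3 (adjusted p of 0.0667 and 0.061).

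Sites of a short word were present in the 3′ UTR of KIF5B. All 16384 words of 7 bases were scored over the genes that hold them in the 3′ UTR. The score was the mean difference in log2 fold change, adjusted for UTR length and GC content, times the root of the gene number. GAAGAGA had the lowest score, with a mean difference of -0.14 over 1997 genes, so it need not have the lowest mean of all words. The word was found in these same libraries and genes, KIF5B included. Its presence in KIF5B is a description. The word was picked for low fold changes among the genes that hold it, so their lower values are not separate support. The 9579 genes without it had a median log2 fold change of -0.01 and 22.0% were lower, against -0.11 and 35.5% for the 1558 genes with 1 site and -0.12 and 38.2% for the 330 genes with 2 sites. Genes with more sites also had longer 3′ UTRs, with medians of 877 bp for no site, 2542 bp for 1 and 4017 bp for 2. KIF5B holds it at these places, shown because this gene had the largest fall of any kinesin, on the minus strand of GRCh38 with the word in capitals.
KIF5B, chr10:32009288-32009314, 2235 bases after the stop codon: atagatggttcaGAAGAGAaactcaat
KIF5B, chr10:32009160-32009186, 2363 bases after the stop codon: catgaggtgacaGAAGAGAgtctgagt
KIF14 holds it 2 times, and KIF4A, KIF3B and KIF1C hold it 1 time each, so 5 of 35 kinesins searched have it. Of all 11576 genes scanned 1997 have it, so the word was not more common among kinesins. KIF1C, which was higher, has this site on the plus strand.
KIF1C, chr17:5024347-5024373, 208 bases after the stop codon: gcaaaccaaagtGAAGAGAgagatagg
Of the mitotic kinesins, the 4 that hold GAAGAGA or the second-ranked AAGAGAA had a median log2 fold change of -0.95, and the 7 that hold neither had -0.85, with all of them lower. This split was not tested. The transcript of CHAF1A holds GAAGAGA 3 times, and 0 of these lie in its 3′ UTR. The siRNA sequences were not used here, and the part of the word in any fold change was not tested.

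**Figure D4:**
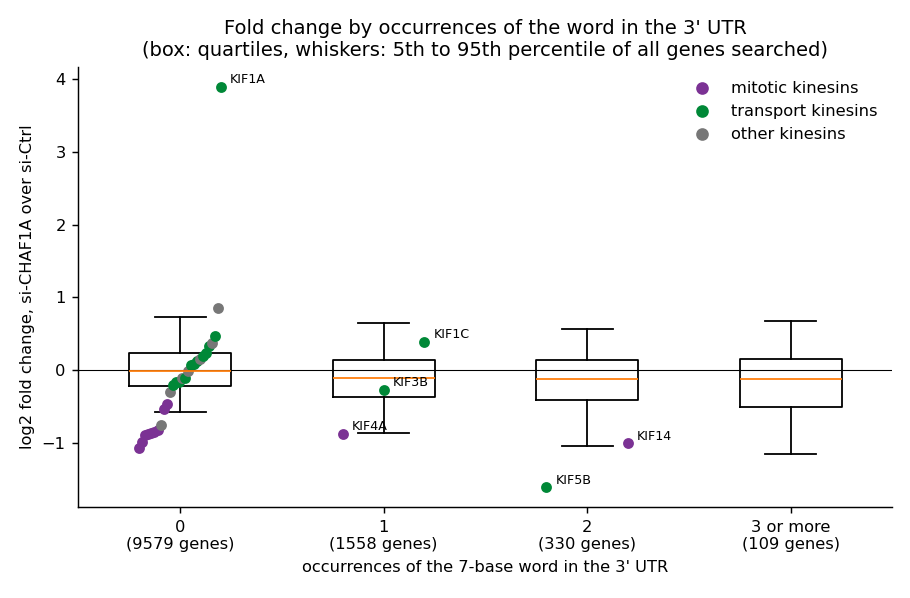
Log2 fold change (y axis) by the number of GAAGAGA sites in the 3′ UTR (x axis), with boxes for the quartiles and whiskers for the 5th to 95th percentile of all 11576 genes searched, and points for the 33 kinesins among them. KIF5B at -1.62 and KIF14 at -1.01 have 2 sites, while most mitotic kinesins have 0 and are also lower. The word was chosen from these same fold changes.

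Kinesin-3 motors of the KIF1 group were higher. KIF1A, the axonal motor of synaptic vesicle precursors and dense-core vesicles, lies on chromosome 2 (240713761 to 240821036, minus strand). It was at 6.84, 9.19 and 6.90 CPM in si-CHAF1A libraries and 0.256, 0.859 and 0.344 CPM in si-Ctrl libraries, which rests on 398 and 27 counts in these groups. It rose 14.9-fold (log2 fold change 3.90, SE 0.30, adjusted p = 9.65e-08 by edgeR), a size of at least 10-fold that 0.585% of all tested genes reached. Without si-Ctrl 2, the highest control, its log2 fold change was 4.62. KIF1A was above the cutoff of the filter in only 1 control library and so could be tested only because it was high in si-CHAF1A libraries. Per kilobase of exon it remained a minor kinesin, at 0.458 CPM in si-CHAF1A cells and 0.0291 CPM in si-Ctrl cells. KIF1B, which carries mitochondria and synaptic vesicle precursors, had 92.1, 102 and 86.9 CPM in si-CHAF1A libraries and 73.0, 74.99 and 76.5 CPM in si-Ctrl libraries (log2 fold change 0.32, SE 0.07, adjusted p = 0.00243 by edgeR). KIF1C, a broadly expressed motor of dense-core vesicles and integrins, had 275, 255 and 251 CPM in si-CHAF1A libraries and 180, 225 and 192 CPM in si-Ctrl libraries (log2 fold change 0.39, SE 0.08, adjusted p = 0.00116 by edgeR). For both genes the groups did not overlap, and the KIF1 motors summed to 362 ± 15.3 CPM in si-CHAF1A libraries and 274 ± 24.3 CPM in si-Ctrl libraries.

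The usual cargoes of KIF1A and neuronal secretory genes showed no common direction. Of 28 listed genes 19 were tested, 2 were lower and 4 higher (10.5% and 21.1%, beside 19.3% and 18.5% of all tested genes), and the median log2 fold change was 0.01. SYT11, a synaptotagmin of vesicles, had 5.77, 5.97 and 6.17 CPM in si-CHAF1A libraries and 1.66, 2.17 and 1.20 CPM in si-Ctrl libraries (log2 fold change 1.81, SE 0.22, adjusted p = 9.20e-06 by edgeR). MAP2, a dendritic microtubule protein that governs KIF1A cargo entry in neurons, was higher by 0.74, the lipid scramblase ATG9A by 0.34 and the granule peptide VGF by 0.40 on the log2 scale. RAB3B, a small GTPase of secretory vesicles, fell by 0.67 on the log2 scale (adjusted p = 9.33e-07 by edgeR). The other lower gene, STX1A, a syntaxin, was at -0.31 on the log2 scale and lost its call without any 1 si-CHAF1A library, without si-Ctrl 2 (adjusted p of 0.0657 to 0.113) and with upper-quartile scaling (adjusted p = 0.0539). MADD, the adaptor that links RAB3 vesicles to KIF1A and KIF1B, was at 0.12 (adjusted p = 0.158 by edgeR), but passed without si-Ctrl 2 (adjusted p = 0.0108). KIFBP, which binds and blocks several kinesins, KIF1A, KIF15 and KIF18A among them, was at -0.15 (adjusted p = 0.114 by edgeR) and likewise passed without si-Ctrl 2 (adjusted p = 0.017).

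**Figure D5:**
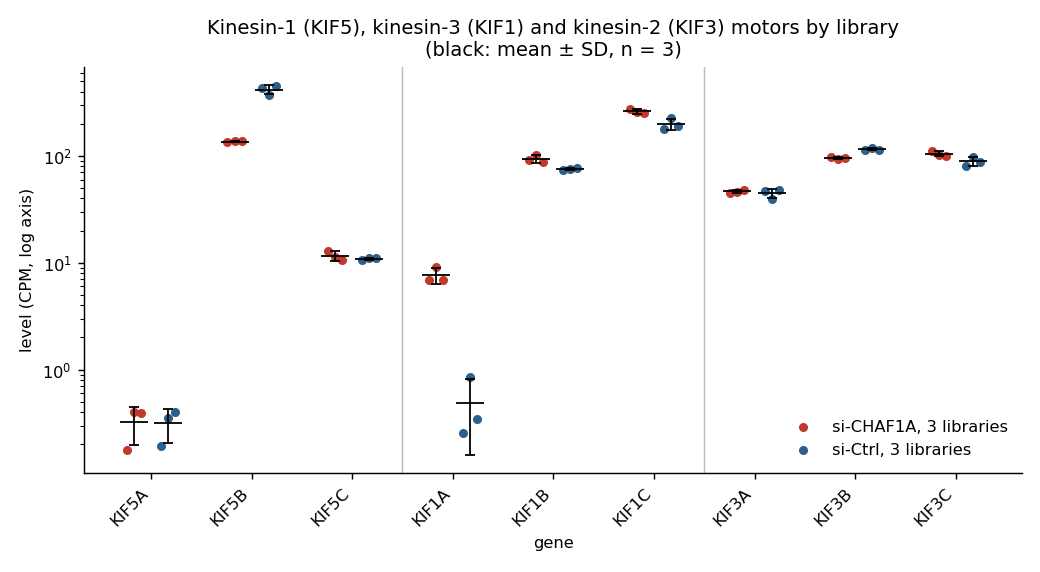
Level in CPM (y axis, log scale) of the KIF5, KIF1 and KIF3 motors in each library, with si-CHAF1A left of si-Ctrl and the mean ± SD (n = 3) in black. KIF5B is lower (134 to 138 CPM in si-CHAF1A against 369 to 449 CPM in si-Ctrl) and KIF1A higher (6.84 to 9.19 CPM in si-CHAF1A against 0.256 to 0.859 CPM in si-Ctrl), while KIF5C and KIF3A overlap between the groups.

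Kinesin-2 motors, which drive intraflagellar transport in cilia, showed small and opposed shifts. KIF3B was at 97.4, 94.2 and 95.8 CPM in si-CHAF1A libraries and 115, 119 and 113 CPM in si-Ctrl libraries (log2 fold change -0.27, SE 0.06, adjusted p = 0.0031 by edgeR). KIF3C, which can pair with KIF3A, was at 111, 103 and 100.3 CPM in si-CHAF1A libraries and 80.9, 98.4 and 87.3 CPM in si-Ctrl libraries (log2 fold change 0.24, SE 0.08, adjusted p = 0.0262 by edgeR). The groups did not overlap in either gene, but the call of KIF3C was lost without si-CHAF1A 1, si-CHAF1A 2, si-Ctrl 1 or si-Ctrl 3 (adjusted p of 0.0709 to 0.139). KIF3A, the common subunit, was at 45.3, 46.3 and 48.1 CPM in si-CHAF1A libraries and 46.4, 39.4 and 47.9 CPM in si-Ctrl libraries (log2 fold change 0.07, adjusted p = 0.586 by edgeR). KIFAP3, the cargo-binding subunit of the complex, had a log2 fold change of -0.14 (adjusted p = 0.286 by edgeR). KIF17, the homodimeric ciliary and dendritic motor, was near 1 CPM in all libraries, and its groups overlapped. The KIF3 motors summed to 247 ± 5.80 CPM in si-CHAF1A libraries and 249 ± 7.51 CPM in si-Ctrl libraries.

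Among the remaining transport motors KIF21B and KIFC3 passed the test. KIF21B, a kinesin-4 that pauses microtubule growth, was at 23.2, 21.4 and 20.6 CPM in si-CHAF1A libraries and 14.9, 16.9 and 15.1 CPM in si-Ctrl libraries (log2 fold change 0.47, SE 0.10, adjusted p = 0.00147 by edgeR). Its groups lay apart. KIFC3, a minus-end motor at the Golgi and at cell junctions, was at 214, 209 and 201 CPM in si-CHAF1A libraries and 228, 261 and 234 CPM in si-Ctrl libraries (log2 fold change -0.21, SE 0.07, adjusted p = 0.0192 by edgeR). That call did not hold without si-CHAF1A 2 or without si-CHAF1A 3 (adjusted p of 0.0698 and 0.107), nor with upper-quartile scaling (adjusted p = 0.0551). KIF21A, KIF13A, KIF13B, KIF16B and KIFC2 did not pass, with log2 fold changes between -0.17 and 0.19. Of these KIF21A, KIF13B and KIFC2 passed without si-Ctrl 2 (adjusted p of 0.00297, 0.00051 and 0.0455), and KIF13B with upper-quartile scaling (adjusted p = 0.0354).

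Adaptors that couple kinesins to cargo were mixed, with 4 lower and 8 higher of 24 tested (25 listed, light chains included) and a median log2 fold change of -0.04. These are 16.7% lower and 33.3% higher, beside 19.3% and 18.5% of all tested genes. The 8 higher include KLC3, which could be tested only because it was high in si-CHAF1A libraries, so the higher share is raised by that filter. These counts moved with single libraries, to 7 lower without si-Ctrl 2 and to 5 higher without si-CHAF1A 1, without si-CHAF1A 2 or without si-Ctrl 3. SYBU, or syntabulin, which links KIF5B to mitochondria and syntaxin vesicles, was at 11.8, 9.99 and 10.3 CPM in si-CHAF1A libraries and 22.9, 25.1 and 24.3 CPM in si-Ctrl libraries (log2 fold change -1.18, SE 0.10, adjusted p = 3.73e-07 by edgeR). Of the 4 listed JIP scaffolds, which bind kinesin-1, MAPK8IP2, MAPK8IP1 and MAPK8IP3 were higher and SPAG9 did not pass. MAPK8IP2 was at 13.02, 12.7 and 11.6 CPM in si-CHAF1A libraries and 3.65, 4.95 and 4.82 CPM in si-Ctrl libraries (log2 fold change 1.46, SE 0.14, adjusted p = 1.23e-06 by edgeR). MAPK8IP1 was at 39.0, 31.3 and 33.4 CPM in si-CHAF1A libraries and 16.4, 19.9 and 18.6 CPM in si-Ctrl libraries (log2 fold change 0.91, SE 0.11, adjusted p = 6.39e-06 by edgeR). MAPK8IP3 was higher by 0.24 on the log2 scale, but its call was lost without si-CHAF1A 1, si-CHAF1A 2, si-Ctrl 1 or si-Ctrl 3 (adjusted p of 0.076 to 0.0998). SPAG9, or JIP4, was at -0.14 (adjusted p = 0.0795 by edgeR) and passed without si-Ctrl 2, as lower (adjusted p = 0.00022). PLEKHM2, or SKIP, which couples lysosomes to kinesin-1, was higher by 0.39 on the log2 scale (adjusted p = 0.0018 by edgeR). Of the opposing motor, cytoplasmic dynein with dynactin, 22 of 25 listed genes were tested, 6 were lower and 5 higher, with a median log2 fold change of 0.02. These shares, 27.3% and 22.7%, are near the 19.3% and 18.5% of all tested genes. The dynein adaptor BICD2 was at 122, 114 and 121 CPM in si-CHAF1A libraries and 40.7, 34.1 and 37.0 CPM in si-Ctrl libraries (log2 fold change 1.67, SE 0.08, adjusted p = 2.72e-10 by edgeR). DYNC1I1, a dynein intermediate chain, fell to 1.61, 0.632 and 1.01 CPM in si-CHAF1A libraries, against 3.52, 3.34 and 3.61 CPM in si-Ctrl libraries (log2 fold change -1.69, SE 0.29, adjusted p = 0.000255 by edgeR). DYNLL2, PAFAH1B1 and DCTN2 were higher by 0.42, 0.33 and 0.33 on the log2 scale.

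The kinesins outside both roles summed to 201 ± 3.65 CPM in si-CHAF1A libraries and 198 ± 11.8 CPM in si-Ctrl libraries. KIF2A, a depolymerase of spindle poles, cilia and axon branches, led this group at 131, 127 and 121 CPM in si-CHAF1A libraries and 134, 113 and 137 CPM in si-Ctrl libraries (log2 fold change -0.02, SE 0.08, adjusted p = 0.87 by edgeR). Its relative KIF2C fell, as given above, while the groups overlapped for KIF2A. KIF7, the immotile kinesin that organises the tip of cilia for Hedgehog signalling, was at 2.44, 2.53 and 1.46 CPM in si-CHAF1A libraries and 3.65, 3.54 and 3.67 CPM in si-Ctrl libraries (log2 fold change -0.76, SE 0.23, adjusted p = 0.0174 by edgeR). It did not pass without si-CHAF1A 3, the lowest library (adjusted p = 0.0916), and TICRR, which overlaps it on the opposite strand and which was lower by 0.67 on the log2 scale, was the more abundant of the pair. KIF9, a motile cilium kinesin, was at 4.70, 6.78 and 5.50 CPM in si-CHAF1A libraries and 2.94, 3.64 and 2.81 CPM in si-Ctrl libraries (log2 fold change 0.85, SE 0.19, adjusted p = 0.00266 by edgeR). KLHL18 and KIF9-AS1 overlap KIF9 on the opposite strand, and the strand setting of the counting is not given in the sources used here. KIF26A, a kinesin without motor activity that affects enteric neurons in mouse, was at 8.44, 7.64 and 6.90 CPM in si-CHAF1A libraries and 5.57, 6.16 and 5.96 CPM in si-Ctrl libraries (log2 fold change 0.37, SE 0.14, adjusted p = 0.0493 by edgeR). Its call was lost by DESeq2 (adjusted p = 0.101), by limma-voom (0.0577), with no filter (0.124), with a replicate block (0.0861) and without any library other than si-Ctrl 2 (0.0519 to 0.193). KIF6, KIF12, KIF24 and KIF27 did not pass, with log2 fold changes between -0.44 and 0.14, and of these KIF24 passed without si-Ctrl 2 (adjusted p = 0.0312). KIF19, KIF25 and KIF26B had 15, 2 and 9 counts in all libraries together and were not tested.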

How the data were processed

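RNA of 6 cultures was sequenced with reads of 150 bp. The authors deposited 1 table of gene-level read counts, not normalised. Per the submitters' processing notes, fastp 0.20.1, HISAT2 2.1.0, SAMtools 1.9, featureCounts 2.0.1, StringTie 2.1.4 and hg38 were used. The annotation release, the strand setting and the handling of reads with several matches were not stated (not given in the sources used here). Reads of overlapping genes and near copies are therefore uncertain. Columns named NC were read as the negative control and matched to si-Ctrl by number, which the labels do not state outright. The series calls the samples biological replicates, with no word on how separate the cultures were. The p-values set the difference between groups only against the spread among these samples, which may be technical.

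Symbols were found for 62665 of 63186 identifiers and positions for 58173 (GENCODE 29, GRCh38). 1 pseudogene with a matching symbol was left out. Genes were kept by filterByExpr (minimum count 10, minimum total 15), and si-CHAF1A was compared with si-Ctrl by edgeR 4.0.16 (robust quasi-likelihood test, TMM) in R 4.3.3 over 15911 genes. CPM and fold changes were computed here. SE is the log2 fold change divided by the root of the F value. Alternatives used DESeq2 1.42.0, limma 3.58.1 (voom), other scalings and filters, a replicate block, and leaving out each library. Words were scanned in 11576 genes whose 3′ UTR had 50 bp or more and whose mean log2 CPM was 1 or more, with fold changes limited to 2 either way.

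The kinesins, their roles and the 10 gene lists were chosen with earlier results of these data known. Named genes were CHAF1A, every kinesin, and from each list of partners the direct partners and up to 5 genes past the test with the smallest p. AURKB, NUMA1, PCNA, BIRC5, MAPRE1, MAPK8IP3, SPAG9 and STX1A were named after their values were seen.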

Additional observations from a re-analysis of the deposited data

How the results depend on the processing

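The number of mitotic kinesins called lower (11) and higher (0) was the same under all 7 alternatives and without each of the 6 libraries. The other kinesins called higher numbered 1, in place of 2, by DESeq2, by limma-voom, with no filter and with the replicate block. Leaving out 1 library gave 1 to 2 for that count, 0 to 2 for other kinesins lower (1 with all libraries), 0 to 1 for partners higher (1), 3 to 7 for adaptors lower (4) and 5 to 9 for adaptors higher (8). Transport kinesins lower then numbered 2 to 4 (3 with all libraries). Transport kinesins higher numbered 4 to 7 (5 with all libraries), with the 7 reached without si-Ctrl 2. The sign turned only in genes that did not pass the test. With upper-quartile scaling KIF2A and KIF17 were at 0.026 and MAPRE1 at 0.041, with no filter BIRC5 was at -0.006, and without 1 library the log2 fold changes were -0.11 to 0.028 for KIF2A, -0.284 to 0.253 for KIF17, -0.024 to 0.115 for KIF3A, -0.289 to 0.089 for KIF27, -0.004 to 0.148 for KIF5C, -0.044 to 0.04 for BIRC5 and -0.031 to 0.011 for MAPRE1. The cause was not tested. Of 1326 fold changes of single genes over all alternatives, 1253 kept direction and call, 48 lost the call, 8 gained it and 17 changed sign. For genes other than kinesins and CHAF1A these fits were added after seeing the data. Same-numbered samples did not deviate together (correlations of -0.086, -0.064 and -0.003). With 3 samples per group this cannot show whether the numbers pair the samples. The replicate block gave 2723 lower and 2675 higher genes, in place of 3064 and 2944. Upper-quartile scaling moved the median of all genes to 0.05. Genes under about 0.578 CPM in most libraries were not tested at this depth.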
